A study of Mus musculus with 75 samples.

Results

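The genes of the cyclin-dependent kinase (CDK) inhibitors were followed in lungs of mice with bleomycin-induced pulmonary fibrosis (BLEO-IPF mice). All 7 members, *Cdkn1a*, *Cdkn1b*, *Cdkn1c*, *Cdkn2a*, *Cdkn2b*, *Cdkn2c* and *Cdkn2d*, were chosen by gene symbol from the 55536 genes of the count table, whatever their values. RNA was sequenced from the inferior lobe of the lung in 75 male C57BL/6JRj mice, with 1 library per mouse. BLEO-IPF mice were 12 to 14 weeks old when they were given 1 dose of bleomycin sulphate into the trachea, and they entered the study groups only if they had lost 5 to 17% of body weight by day 6. They were terminated on day 7 (n = 10), day 14 (n = 12), day 21 (n = 12), day 28 (n = 12), day 35 (n = 12) or day 42 (n = 7). The controls (CTRL, n = 10) were labelled as given saline, whereas the treatment protocol called them untreated, and their day of termination was not given in the sources used here. All mice were of the same inbred strain and had no engineered allele, and the lungs had been rinsed to collect lavage fluid before the lobe was taken.

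CDK inhibitors bind cyclin-dependent kinases or their cyclin complexes and hold cells back from entering or completing the division cycle. The CIP/KIP proteins p21 (*Cdkn1a*), p27 (*Cdkn1b*) and p57 (*Cdkn1c*) bind cyclin-CDK complexes, whereas the INK4 proteins p16 (*Cdkn2a*), p15 (*Cdkn2b*), p18 (*Cdkn2c*) and p19INK4d (*Cdkn2d*) bind CDK4 and CDK6 and keep them from D-type cyclins. p21 is a classic target of the p53 DNA damage response, p16 is a widely used marker of senescence, the lasting arrest of damaged cells, and both have been studied in injured alveolar epithelium and in fibroblasts of fibrotic lung.

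The start sites of *Cdkn1a* and *Cdkn2a* are shown because these were the members with the largest increases. RefSeq promoter entries (GRCm38.p6) were found for 6 of the 7 members, all except *Cdkn1c*, and the 250 bases before each start were searched on both strands. *Cdkn1a* has an upstream start (chr17:29090729-29090978, plus strand), which matched transcripts Cdkn1a-202 and Cdkn1a-204, and a downstream start (chr17:29093519-29093768, plus strand), which matched Cdkn1a-201 and Cdkn1a-205. *Cdkn2a* has an upstream start (chr4:89294620-89294869, minus strand), which matched Cdkn2a-202, the transcript of the unrelated protein p19ARF, and a downstream start inside the first intron of that transcript (chr4:89282193-89282442, minus strand), which matched Cdkn2a-201, the transcript of p16. Capitals mark matches to the 10-base half-site of the p53 motif, to the GC box (GGGCGG) or to the E2F letters TTTCCCGC, and no marks overlap in these windows.
Cdkn1a upstream start: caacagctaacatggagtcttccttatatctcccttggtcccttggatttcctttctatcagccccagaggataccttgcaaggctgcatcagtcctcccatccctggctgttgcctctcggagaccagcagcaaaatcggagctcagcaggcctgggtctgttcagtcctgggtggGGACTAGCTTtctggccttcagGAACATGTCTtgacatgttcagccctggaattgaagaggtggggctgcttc
Cdkn1a downstream start: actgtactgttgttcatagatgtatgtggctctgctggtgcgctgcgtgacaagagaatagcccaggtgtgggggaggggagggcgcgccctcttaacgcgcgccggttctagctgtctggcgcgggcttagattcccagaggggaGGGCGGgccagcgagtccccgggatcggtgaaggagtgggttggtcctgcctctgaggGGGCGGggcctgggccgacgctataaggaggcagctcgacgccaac
Cdkn2a upstream start: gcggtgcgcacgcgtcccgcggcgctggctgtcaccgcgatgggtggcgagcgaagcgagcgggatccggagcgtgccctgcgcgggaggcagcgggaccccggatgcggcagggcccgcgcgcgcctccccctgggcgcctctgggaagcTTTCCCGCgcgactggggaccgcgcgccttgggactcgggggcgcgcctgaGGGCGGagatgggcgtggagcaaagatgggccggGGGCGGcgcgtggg
Cdkn2a downstream start: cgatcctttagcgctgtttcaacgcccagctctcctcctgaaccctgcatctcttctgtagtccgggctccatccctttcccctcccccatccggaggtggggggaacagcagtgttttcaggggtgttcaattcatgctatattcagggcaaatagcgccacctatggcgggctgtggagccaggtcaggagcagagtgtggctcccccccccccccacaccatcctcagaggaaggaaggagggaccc
The upstream *Cdkn1a* window held 2 p53 half-site matches, which 7.13% of the 32851 RefSeq promoter windows of this length also held in at least 1 copy. The downstream *Cdkn1a* window and the upstream *Cdkn2a* window each held 2 GC boxes, found in 32.7% of windows. The upstream *Cdkn2a* window held 1 E2F match, in 1.86% of windows when any of the 4 sequences TTTGGCGC, TTTCCCGC, TTTCGCGC and TTTGCCGC was counted. It was also the most CpG-rich, with 40 CpG beside 7 at the p16 start, 19 and 2 at the *Cdkn1a* starts and a median of 6 over all windows. None of these 4 windows held TATAAA, in 12.4% of all windows, or CCAAT, in 33.8%. The matches describe letters only.

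Read counts per gene were compared as CPM, scaled to effective library sizes (library totals adjusted by TMM factors), and tested with edgeR's quasi-likelihood test in 1 fit of all 75 mice. A gene was called significant at an adjusted p under 0.05 (Benjamini-Hochberg, 16221 genes tested), and log2 fold changes (log2FC) are given with their standard errors (SE). Total counts ranged from 9240291 to 14665247 per mouse, with a median of 10677163. The tissue label was borne out by lung markers, since CTRL mice had a mean of 13880 CPM of *Sftpc* (surfactant protein C, alveolar type 2 cells) and 22073 CPM of *Scgb1a1* (club cells). Day 14 replicate 8 lay farthest from its group, with a median absolute log2 distance of 0.33 over genes beside 0.13 for the median mouse, and fold changes of members that lost their call or moved by over 1.5 times without it are given in both ways. In whole lung tissue, fewer cells of a type and less RNA per cell cannot be told apart.

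The members fell into distinct courses. *Cdkn1a* was 9.17-fold higher than CTRL on day 7 and still 4.06-fold higher on day 42. *Cdkn2a*, at a median of 4.5 counts in CTRL mice (range 1 to 12), rose mostly between days 7 and 14 (medians of 8.5 and 24.5 counts) and stayed up. *Cdkn2b*, *Cdkn2c* and *Cdkn2d* rose modestly with their highest means on day 14, *Cdkn1b* fell and returned, and *Cdkn1c* was lower from day 21. Against CTRL, 5 members were higher and 1 lower on day 7, when 24.8% of all genes tested were higher and 21% lower. On day 14, 5 were higher and 1 lower (all genes, 32.4% higher and 29.9% lower), and on day 21, 5 were higher and 2 lower (28.3% and 25.8%). On day 28 the count was 4 higher and 2 lower (24.1% and 19.2%), on day 35 it was 2 higher and 1 lower (16.9% and 13.1%), and on day 42 it was 3 higher and 1 lower (13.7% and 11%). All 6 comparisons share the same CTRL mice. The median log2FC of the 7 members was 0.45, 0.60 and 0.25 on days 7, 14 and 42, beside medians of all genes between 0.00 and 0.02 on the 6 days. All 7 members passed the filter on low counts, but *Cdkn2a* did so through the BLEO-IPF groups, since only 1 of 10 CTRL mice reached the cutoff against 11 of 12 mice on day 14.

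**Figure D1:**
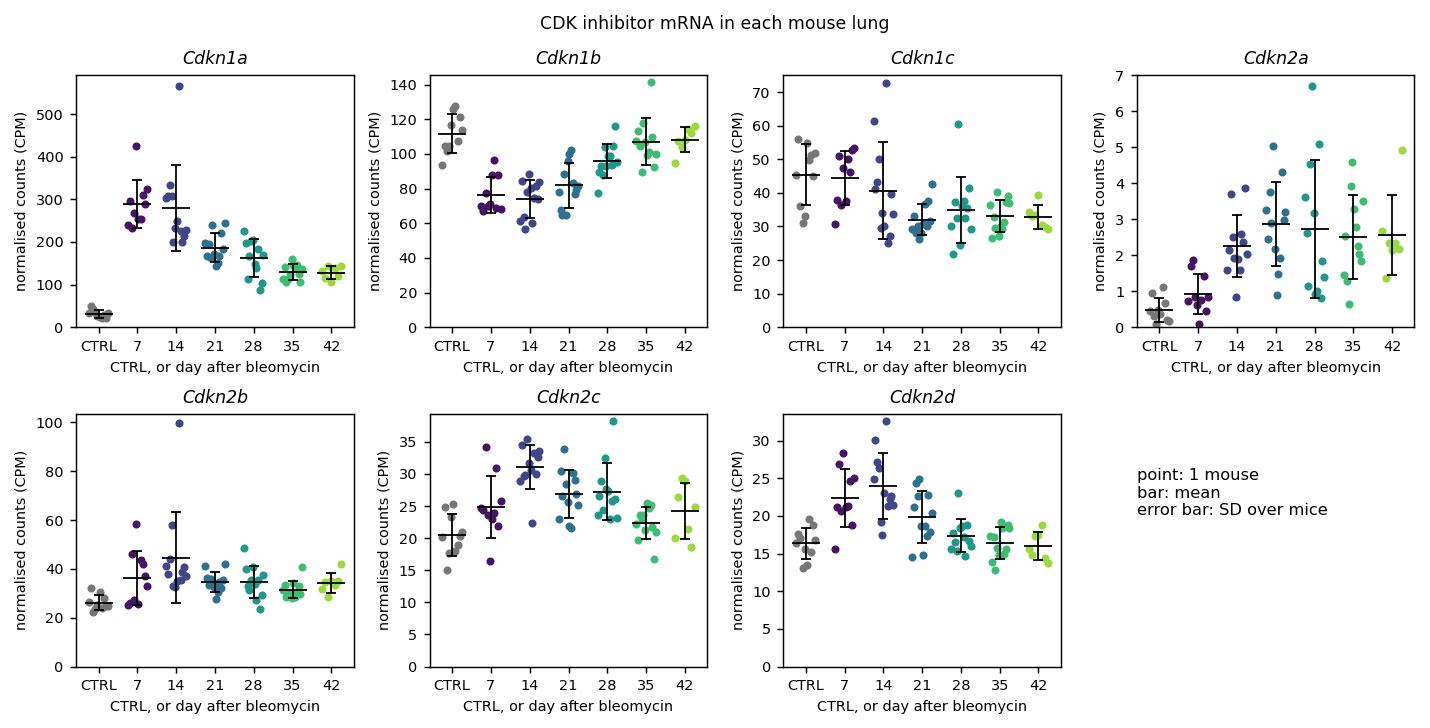
Normalised counts (CPM, linear axes from 0) of the 7 CDK inhibitor genes in CTRL mice and on each day after bleomycin, with 1 point per mouse, the mean as a bar and the SD over mice as the error bar. *Cdkn1a* in BLEO-IPF mice lay above all CTRL mice on every day, and 1 day 14 mouse stood at 566 CPM, far above the next at 333.

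*Cdkn1a* encodes p21, which inhibits CDK2 complexes and binds PCNA. In CTRL mice it measured 22.6 CPM in the lowest mouse, 30.8 at the median and 49.3 in the highest. On day 7 the lowest, median and highest mice had 234, 278 and 425 CPM, and on day 14 they had 199.8, 241 and 566. Levels then decreased from a median of 177 (145 to 244) on day 21 to 168 (88.4 to 227) on day 28, 130 (105 to 159) on day 35 and 131 (107 to 143) on day 42. No BLEO-IPF mouse on any day overlapped the CTRL mice. The increase was 9.17-fold on day 7 (log2FC 3.20 ± 0.16 SE, adjusted p = 1.38e-27), 8.88-fold on day 14 (3.15 ± 0.15, adjusted p = 1.99e-27) and 5.92-fold on day 21 (2.57 ± 0.15, adjusted p = 1.05e-22). It was 5.12-fold on day 28 (adjusted p = 8.95e-21), 4.10-fold on day 35 (adjusted p = 6.78e-18) and 4.06-fold on day 42 (adjusted p = 1.44e-15). Only 59 genes had a higher log2FC than *Cdkn1a* on day 7, and 142 and 179 had on days 14 and 42, of 16221 tested. Day 14 replicate 8 had the highest *Cdkn1a* level of all mice, and without it the day 14 mean decreased from 280 ± 101 (SD, n = 12) to 255 ± 48.8 (n = 11) and the increase to 8.08-fold. Only 42 counts over all mice fell on AC167363.2, a gene annotated across 273 exon bases of *Cdkn1a* on the opposite strand, beside 145682 counts of *Cdkn1a*.

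*Cdkn1b* encodes p27, which is abundant in resting cells. It was the member with the highest mean in CTRL mice, both as CPM and per kilobase of exon, at 93.6 CPM in the lowest mouse, 111 at the median and 127 in the highest. The medians were 70.4 CPM (67.1 to 96.2) on day 7, 76.1 (56.8 to 88.3) on day 14 and 80.3 (64.6 to 102) on day 21. On day 28 the median was 94.6 (77.5 to 116), on day 35 it was 106 (89.5 to 142), and on day 42 it was 108 (94.5 to 116). Below the lowest CTRL mouse lay 9 of 10 mice on day 7, 12 of 12 on day 14, 9 of 12 on day 21 and 5 of 12 on day 28, but 0 of 7 on day 42. *Cdkn1b* was 31.6% lower than CTRL on day 7 (log2FC -0.55 ± 0.08, adjusted p = 7.24e-08) and 33.9% lower on day 14 (-0.60 ± 0.08, adjusted p = 6.12e-10). It was 26.7% lower on day 21 (adjusted p = 1.18e-06) and 14.0% lower on day 28 (adjusted p = 0.0165). The differences on day 35 (log2FC -0.06 ± 0.08, adjusted p = 0.576) and day 42 (-0.05 ± 0.09, adjusted p = 0.743) were not significant.

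*Cdkn1c* encodes p57 and is an imprinted gene that is expressed mainly from the maternal allele. Its counts measured 31.2 CPM in the lowest CTRL mouse, 47.6 at the median and 56.1 in the highest. The median was 46.8 CPM (30.6 to 53.4) on day 7 and 36.8 (25.1 to 72.7) on day 14, and the mice of both days overlapped CTRL. Later medians were 30.5 (26.2 to 42.5) on day 21, 33.99 (21.8 to 60.5) on day 28, 32.1 (26.7 to 40.4) on day 35 and 33.2 (29.1 to 39.3) on day 42. No significant difference from CTRL was found on day 7 (log2FC -0.03 ± 0.14, adjusted p = 0.859) or day 14 (-0.16 ± 0.13, adjusted p = 0.283). Without day 14 replicate 8, the mouse at 72.7 CPM, the day 14 log2FC was -0.27 ± 0.12 (adjusted p = 0.0588). *Cdkn1c* was 29.5% lower on day 21 (-0.50 ± 0.13, adjusted p = 0.000901), 23.2% lower on day 28 (adjusted p = 0.0150), 27.2% lower on day 35 (adjusted p = 0.00523) and 27.8% lower on day 42 (-0.47 ± 0.15, adjusted p = 0.0190). The groups overlapped on each of these days, and 3 of 7 mice on day 42 were below the lowest CTRL mouse. The antisense gene Gm44732 shares 625 exon bases with *Cdkn1c* and held 123 counts over all mice, 0.396% of those of *Cdkn1c*. The handling of strand in the counting was not given in the sources used here, so reads of *Cdkn1c* and Gm44732 may not be fully separated.

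*Cdkn2a* is a single gene with 2 coding transcripts that start apart and encode p16 and p19ARF, a protein that stabilises p53. Their exons share 575 bases, with 277 only in the p16 transcript and 320 only in the p19ARF transcript, and the gene counts cannot tell them apart. CTRL mice had 1 to 12 counts (median 4.5), equal to 0.0928 to 1.13 CPM. On day 7 the mice had 1 to 23 counts (median 8.5), and 3 of 10 exceeded all CTRL mice. On day 14 they had 9 to 47 counts (median 24.5), on day 21 they had 10 to 48 (median 32), and 11 of 12 mice exceeded all CTRL mice on both days. The range was 8 to 67 counts (median 26.5) on day 28, 7 to 44 (median 28) on day 35 and 16 to 51 (median 25) on day 42, when all 7 mice exceeded all CTRL mice. Mean levels were 0.483 ± 0.339 CPM in CTRL (SD, n = 10), 0.933 ± 0.557 on day 7, 2.25 ± 0.854 and 2.86 ± 1.18 on days 14 and 21, and 2.57 ± 1.11 on day 42. The increase was 1.93-fold on day 7 (log2FC 0.95 ± 0.40, adjusted p = 0.0469), a call that was lost in 10 of the 20 fits that left out 1 of the mice compared (day 7 replicates 2, 3 and 8 and CTRL replicates 1, 3, 4, 5, 6, 9 and 10, highest adjusted p = 0.122). It was 4.56-fold on day 14 (2.19 ± 0.37, adjusted p = 5.77e-07), 5.77-fold on day 21 (2.53 ± 0.37, adjusted p = 2.77e-08), 5.54-fold on day 28 (adjusted p = 1.61e-07), 5.07-fold on day 35 (adjusted p = 8.54e-07) and 5.18-fold on day 42 (2.37 ± 0.40, adjusted p = 7.32e-06). The spread between mice was widest on day 28 among the BLEO-IPF groups, with an SD of 70.04% of the mean. Only 115 genes had a higher log2FC than *Cdkn2a* on day 42, beside 940 on day 7.

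*Cdkn2b* encodes p15 and lies next to *Cdkn2a* on chromosome 4. It measured 22.2 CPM in the lowest CTRL mouse, 25.1 at the median and 32.04 in the highest. On day 7 the lowest, median and highest mice had 25.2, 35.0 and 58.3 CPM, and on day 14 they had 32.6, 38.4 and 99.7, so that all 12 day 14 mice were above all CTRL mice. Medians were 34.5 on day 21 (27.6 to 42.0), 34.5 on day 28 (23.7 to 48.4), 30.1 on day 35 (28.1 to 40.6) and 34.6 on day 42 (28.5 to 42.0), and on these days the groups overlapped CTRL. *Cdkn2b* was 1.39-fold higher on day 7 (log2FC 0.47 ± 0.13, adjusted p = 0.00294), 1.70-fold on day 14 (0.76 ± 0.13, adjusted p = 6.77e-07), 1.32-fold on day 21 (adjusted p = 0.00673) and 1.32-fold on day 28 (adjusted p = 0.00934). Without day 14 replicate 8, which had the highest *Cdkn2b* level, the day 14 increase was 1.51-fold (adjusted p = 2.82e-06). On day 35 the difference was not significant (log2FC 0.26 ± 0.13, adjusted p = 0.119). On day 42 it was 1.31-fold (0.39 ± 0.15, adjusted p = 0.0441), and that call was lost in 12 of 17 fits that left out 1 of the mice compared (day 42 replicates 1, 2, 4, 5, 6 and 7 and CTRL replicates 3, 4, 5, 7, 9 and 10, highest adjusted p = 0.121).

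*Cdkn2c* encodes p18. CTRL mice had 15.02 CPM in the lowest mouse, 20.2 at the median and 25.4 in the highest, and the day 14 mice had 22.4, 31.2 and 35.4, with 11 of 12 above all CTRL mice. The median was 24.1 CPM on day 7 (16.5 to 34.3), 26.7 on day 21 (21.5 to 33.9), 26.3 on day 28 (23.01 to 38.2), 22.6 on day 35 (16.8 to 25.5) and 24.8 on day 42 (18.7 to 29.4). *Cdkn2c* was 1.22-fold higher on day 7 (log2FC 0.28 ± 0.10, adjusted p = 0.0132), but not without day 7 replicate 3 (adjusted p = 0.0626). The increase was 1.52-fold on day 14 (0.60 ± 0.09, adjusted p = 8.00e-08), 1.31-fold on day 21 (adjusted p = 0.000259) and 1.33-fold on day 28 (adjusted p = 0.000232). Day 35 (0.13 ± 0.09, adjusted p = 0.318) and day 42 (0.25 ± 0.11, adjusted p = 0.0791) did not pass the test.

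*Cdkn2d* encodes p19INK4d. It measured 13.1 CPM in the lowest CTRL mouse, 16.6 at the median and 19.5 in the highest. The median was 21.3 CPM on day 7 (15.6 to 28.3), 22.8 on day 14 (17.5 to 32.6) and 19.5 on day 21 (14.5 to 24.96), and 8 of 10, 10 of 12 and 6 of 12 mice were above all CTRL mice on those days. From day 28 the mice lay largely within the CTRL range, with medians of 17.0, 16.5 and 15.6 CPM on days 28, 35 and 42. *Cdkn2d* was 1.37-fold higher on day 7 (log2FC 0.45 ± 0.10, adjusted p = 0.000107), 1.47-fold on day 14 (0.56 ± 0.09, adjusted p = 5.91e-07) and 1.21-fold on day 21 (0.28 ± 0.09, adjusted p = 0.00983). It did not pass the test on day 28 (log2FC 0.09, adjusted p = 0.468), day 35 (0.01, adjusted p = 0.973) or day 42 (-0.03, adjusted p = 0.880).

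**Figure D2:**
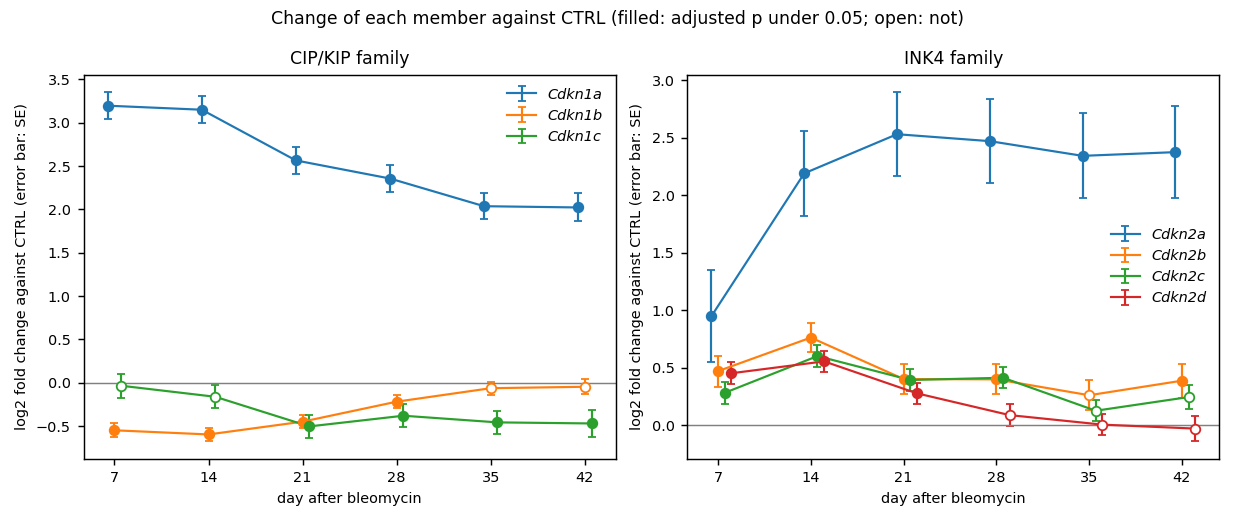
Log2 fold change against CTRL (vertical axis, error bars SE) by day after bleomycin for the CIP/KIP members on the left and the INK4 members on the right, with filled points at an adjusted p under 0.05 and points shifted slightly sideways. *Cdkn1a* declined from 3.20 on day 7 to 2.02 on day 42, whereas *Cdkn2a* went from 0.95 on day 7 to 2.19 on day 14 and 2.37 on day 42.

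Days after bleomycin were also compared with each other, without CTRL. From day 7 to day 14, 2 members rose (all genes, 9.48% higher) and 0 fell (7.55% lower). *Cdkn2a* rose 2.36-fold (log2FC 1.24 ± 0.34, adjusted p = 0.00685) and *Cdkn2c* 1.25-fold (0.32 ± 0.09, adjusted p = 0.0108), while *Cdkn1a* gave a log2FC of -0.05 ± 0.14 (adjusted p = 0.857), or -0.19 ± 0.13 (adjusted p = 0.345) without day 14 replicate 8. From day 14 to day 21 only *Cdkn1a* was called, at 33.3% lower (log2FC -0.58 ± 0.13, adjusted p = 0.0149), when 1.03% of all genes were called. Without day 14 replicate 8 *Cdkn1a* was not called (-0.45 ± 0.12, adjusted p = 0.105). Of the 16208 genes tested without that mouse, only 1 was called higher and 4 lower on this step. From day 21 to day 28 (0.727% of all genes called) and from day 28 to day 35 (1.27%), 0 members passed edgeR's test or DESeq2, although 2 and 3 members had an unadjusted p under 0.05. The lowest adjusted p of a member was 0.119 for *Cdkn1b* on the first step (log2FC 0.23) and 0.0771 for *Cdkn2c* on the second (-0.29). From day 35 to day 42 no gene was called by edgeR (0%) or DESeq2, although 957 genes had an unadjusted p under 0.05, 0 members among them.

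Day 42 differed from day 14 for 5 members. *Cdkn1b* was higher, by 1.46-fold (log2FC 0.55 ± 0.08, adjusted p = 6.69e-07), while 15.2% of all genes were higher. The 4 members that were lower, when 18.8% of all genes were, were *Cdkn1a* (-1.13 ± 0.16, adjusted p = 1.54e-07), *Cdkn2d* (-0.58 ± 0.11, adjusted p = 1.61e-05), *Cdkn2c* (-0.36 ± 0.10, adjusted p = 0.00517) and *Cdkn2b* (-0.37 ± 0.14, adjusted p = 0.0349). Without day 14 replicate 8, *Cdkn2b* was no longer called (-0.20 ± 0.12, adjusted p = 0.188), nor was it without day 14 replicate 4 or any of day 42 replicates 1 to 6 (adjusted p up to 0.0822), whereas *Cdkn1a* was (-0.99 ± 0.14, adjusted p = 2.57e-07). *Cdkn2a* gave a log2FC of 0.18 ± 0.34 (adjusted p = 0.705) and *Cdkn1c* of -0.31 ± 0.15 (adjusted p = 0.0982), so that neither was called. Without day 14 replicate 8 the value of *Cdkn1c* was -0.20 ± 0.14 (adjusted p = 0.277).

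The group means can also be put in order, which restates the same values and is no test. For *Cdkn1a* the order was day 7, day 14, day 21, day 28, day 35, day 42 and CTRL, and of its 6 neighbouring pairs only day 42 and CTRL (128 and 31.6 CPM) differed by more than the larger SD of the pair. For *Cdkn1b* it ran from CTRL through days 42, 35, 28, 21 and 7 to day 14, and only days 28 and 21 (96.01 and 81.8 CPM, not called by edgeR's test, adjusted p = 0.119) differed beyond that spread. *Cdkn2a* ran from day 21 through days 28, 42, 35, 14 and 7 to CTRL, with only days 14 and 7 beyond it. *Cdkn2b* ran from day 14 through days 7, 21, 28, 42 and 35 to CTRL, with only day 35 and CTRL beyond it (not called by edgeR's test, adjusted p = 0.119). *Cdkn1c* (CTRL, days 7, 14, 28, 35, 42 and 21), *Cdkn2c* (days 14, 28, 21, 7, 42, 35 and CTRL) and *Cdkn2d* (days 14, 7, 21, 28, 35, CTRL and day 42) had no neighbouring pair beyond it. Per kilobase of exon, the members could be ranked against each other. In CTRL mice the mean levels in CPM per kilobase were 24.5 for *Cdkn1b*, 22.3 for *Cdkn1c*, 18.9 for *Cdkn2b*, 10.4 for *Cdkn2d*, 8.89 for *Cdkn1a*, 7.61 for *Cdkn2c* and 0.412 for *Cdkn2a*. On day 7 *Cdkn1a* was first at 81.5 CPM per kilobase, ahead of *Cdkn2b* at 26.2, and on day 42 it was still first at 36.1, ahead of *Cdkn2b* at 24.7 and *Cdkn1b* at 23.8.

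Mice of the same group also differed from each other, and the members did not vary together as 1 set. After the group means were subtracted from log2 CPM, *Cdkn1a* correlated with *Cdkn2b* (Pearson's r = 0.59, Spearman's rho = 0.43) and with *Cdkn2a* (0.37 and 0.40) over 75 mice, and inversely with *Cdkn1b* (-0.48 and -0.48). *Cdkn1c* correlated with *Cdkn2d* (0.46 and 0.41) and *Cdkn2b* (0.41 and 0.35), but hardly with *Cdkn2a* (0.06 and 0.00). Without day 14 replicate 8, r over the other 74 mice was 0.48 for *Cdkn1a* and *Cdkn2b*, 0.44 for *Cdkn1a* and *Cdkn2a*, -0.44 for *Cdkn1a* and *Cdkn1b*, 0.40 for *Cdkn1c* and *Cdkn2d* and 0.27 for *Cdkn1c* and *Cdkn2b*. The 2 values of a mouse come from 1 library and share its depth and scaling.

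**Figure D3:**
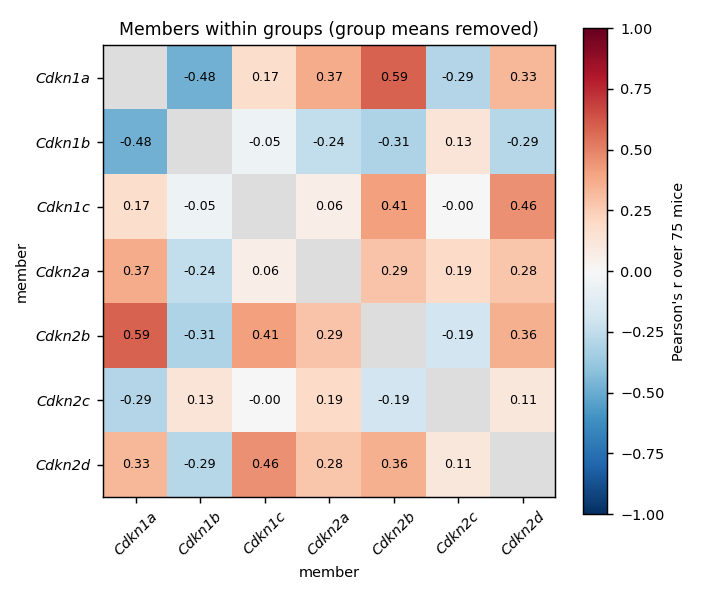
Pearson's r between members over 75 mice after subtraction of the group means from log2 CPM, from -1 (blue) to 1 (red). The strongest positive pair was *Cdkn1a* and *Cdkn2b* at 0.59 and the strongest negative pair *Cdkn1a* and *Cdkn1b* at -0.48.

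The genes whose variation within groups was most like that of each member were ranked by the same r among 16214 other genes. For *Cdkn1a* they were *Mt2* (0.816), a metallothionein, *Tnfrsf12a* (0.814), the TWEAK receptor, and *Klhdc8a* (0.809). Those of *Cdkn1b* were *Pcmtd2* (0.835), *Ube2b* (0.783), a ubiquitin-conjugating enzyme, and *Ogn* (0.724), an extracellular matrix proteoglycan. Those of *Cdkn1c* included 5031425E22Rik (0.717) and *Hrct1* (0.670), and those of *Cdkn2a* were *Cyba* (0.727), a subunit of the phagocyte NADPH oxidase, *Efemp2* (0.709), an elastic fibre protein, and *Tor2a* (0.692). *Cdkn2b* was most like *Tmem37* (0.831), *Rab5c* (0.764) and *Cyb561* (0.754), *Cdkn2c* most like *Mien1* (0.655), *Psme2* (0.596) and *Tomm40l* (0.595), and *Cdkn2d* most like *Psmd4* (0.746), a proteasome subunit, *Phb2* (0.693) and *Hars* (0.678). Without day 14 replicate 8 the order of the 3 genes for *Cdkn1a* turned over, with *Klhdc8a* at 0.805, *Tnfrsf12a* at 0.792 and *Mt2* at 0.779. The r of *Cdkn2b* was then 0.797 with *Tmem37*, 0.721 with *Rab5c* and 0.678 with *Cyb561*, and that of *Cdkn1c* with *Hrct1* was 0.607.

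Among the kinases and cyclins that the inhibitors bind, 12 of 15 genes tested were higher than CTRL on day 14 and 3 on day 42, and 0 were lower on either day. Of all genes tested, 32.4% were higher on day 14 and 13.7% on day 42, so that the day 42 count was closer to that of all genes. The median log2FC of the 15 on day 14 was 0.56, beside 0.01 over all genes. *Cdk4*, the INK4 target, had a log2FC of 0.29 ± 0.06 on day 14 (adjusted p = 3.81e-05) and *Cdk2*, the CIP/KIP target, of 0.31 ± 0.07 (adjusted p = 7.21e-05), whereas *Cdk6* was not called (0.11 ± 0.08, adjusted p = 0.244). Of the D-type cyclins, *Ccnd1* was higher on day 7 (0.67), day 14 (0.56) and day 42 (0.40 ± 0.08, adjusted p = 0.000125), *Ccnd3* on days 7 and 14 (0.38 on both), and *Ccnd2* gave 0.17 on day 14 (adjusted p = 0.0644). The E-type cyclins *Ccne1* (2.04 ± 0.24) and *Ccne2* (1.71 ± 0.20) rose on day 14 and were at CTRL level on day 42 (-0.03 and -0.01). The mitotic genes *Ccnb1* (2.88), *Cdc25c* (2.80) and *Cdk1* (2.75) had the largest increases on day 14.

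All 20 proliferation genes tested were higher than CTRL on days 7, 14 and 21, and 4 were on day 42. Of all genes, 24.8%, 32.4%, 28.3% and 13.7% were higher on those days. The proliferation markers *Mki67* and *Top2a* had log2FC of 2.28 ± 0.24 and 2.34 ± 0.23 on day 14, and of 0.51 (adjusted p = 0.152) and 0.52 (adjusted p = 0.134) on day 42. The other leading genes on day 14 were *Plk1* (2.41), *Birc5* (2.41) and *Aurkb* (2.40). From day 14 to day 42 all 20 fell, beside 18.8% of all genes. In the RB and E2F family, which acts downstream of the kinases, 6 of 13 genes were higher and 2 lower on day 14, beside 32.4% and 29.9% of all genes. *E2f8* (2.18), *E2f7* (1.79) and *E2f3* (0.99) led on that day, and *E2f3* was also higher on day 42 (0.51, adjusted p = 0.000784). The lower genes on day 14 were *Rbl2* and *E2f2*.

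Of p53 and its targets, 14 of 20 genes were higher and 2 lower on day 14, against 32.4% and 29.9% of all genes. On day 42, 11 were higher and 1 lower, against 13.7% and 11% of all genes. *Trp53* itself was higher on day 7 (log2FC 0.21 ± 0.08, adjusted p = 0.0183) and day 14 (0.29 ± 0.07, adjusted p = 0.000445) but not on day 42 (0.13, adjusted p = 0.270). *Mdm2*, the ubiquitin ligase of p53 and a p53 target, was higher on day 7 (0.59 ± 0.06) and day 14 (0.47 ± 0.06) and not on day 42 (0.15, adjusted p = 0.0999). *Gdf15*, a stress cytokine, went from 1.07 CPM in CTRL to 11.2, 7.90 and 4.56 on days 7, 14 and 42 (log2FC 3.37, 2.87 and 2.07), with its highest mean on day 7, as had *Cdkn1a*. *Eda2r* (2.24 on day 14, 1.43 on day 42) and *Phlda3* (1.52 and 0.99) were higher on both days. Within groups, the summed CPM of these 20 genes, which do not include *Cdkn1a*, had r = 0.60 and rho = 0.54 with *Cdkn1a* over 75 mice, and 0.19 and 0.17 with *Cdkn2a*.

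Among regulators of the INK4 locus and Polycomb genes, 2 of 15 were higher and 8 lower on day 14, and 1 and 7 were without day 14 replicate 8. The shares of all genes were 32.4% and 29.9% on day 14, and 31.8% and 29% without that mouse. *Cbx7*, a Polycomb protein known to repress *Cdkn2a*, went from 107 ± 6.14 CPM in CTRL to 60.3 ± 6.56 on day 7 and 44.9 ± 6.44 on day 14 (log2FC -1.25 ± 0.12, adjusted p = 2.29e-14), and was at 79.8 ± 11.7 on day 42 (-0.42 ± 0.14, adjusted p = 0.0163). *Bmi1*, another Polycomb repressor of the locus, differed little (-0.13 ± 0.06 on day 14, adjusted p = 0.0423). *Ezh2*, the Polycomb methyltransferase, was higher on day 14 (0.72 ± 0.11), and the transcription factor *Ets2* was lower (-0.57 ± 0.06). Of the p27 regulators, 4 of 9 were higher and 2 lower on day 14, not far from the 32.4% and 29.9% of all genes. *Skp2* (0.72 ± 0.13) and *Cks1b* (1.73 ± 0.18), parts of the ligase that marks p27 for degradation, were higher and *Foxo4* was lower (-0.69 ± 0.07). *Cdkn1b* mRNA had its lowest mean on the same day, and a link with these genes was not tested.

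The *Cdkn1c* imprinted domain and the neighbouring *H19* and *Igf2* genes gave 4 higher and 2 lower of the 8 genes tested on day 14, and 2 higher and 0 lower on day 42, when *Cdkn1c* was lower. All genes tested gave 32.4% higher and 29.9% lower on day 14, and 13.7% and 11% on day 42. *Kcnq1ot1*, the paternally expressed RNA that silences *Cdkn1c* on that allele, was lower on day 14 (-0.50 ± 0.17, adjusted p = 0.00827) and not called on day 42 (0.04 ± 0.19, adjusted p = 0.903). *Kcnq1* was lower on day 14 (-0.46, adjusted p = 0.00433), and *H19* was higher (2.38 ± 0.63, adjusted p = 0.000879) from a mean of 0.716 CPM in CTRL. *Ascl2* and *Igf2* had too few counts to be tested.

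The list of proteins used as marks of senescence includes *Lmnb1*, a mark by its loss, so that its genes need not share 1 direction. On day 14, 7 of 15 genes were higher and 5 lower, and on day 42, 2 were higher and 2 lower. Of all genes, 32.4% were higher and 29.9% lower on day 14, and 13.7% and 11% on day 42, so that the list stood near all genes on day 42 and in its lower genes on day 14. *Lmnb1* (lamin B1), whose loss is a known mark of senescent cells, was higher on day 14 (log2FC 1.15 ± 0.12) and not called on day 42 (0.22, adjusted p = 0.221). *Glb1*, the lysosomal beta-galactosidase, was higher on day 14 (0.64 ± 0.08) and day 42 (0.23 ± 0.09, adjusted p = 0.0485), and *Plaur* (0.77) and *Uchl1* (0.72) were higher on day 14. Of the senescence-associated secretory phenotype (SASP), the cytokines, proteases and inhibitors that senescent cells are known to release, 28 of 36 genes were higher and 5 lower on day 14, and 19 were higher and 2 lower on day 42. *Il6*, at 0.168 CPM in CTRL, had a log2FC of 3.62 ± 0.56 on day 14 and 3.11 ± 0.62 on day 42. On day 14 the increases were largest for *Mmp10* (7.57), *Ereg* (5.78) and *Mmp12* (5.09), which are also made by cells that are not senescent.

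**Figure D4:**
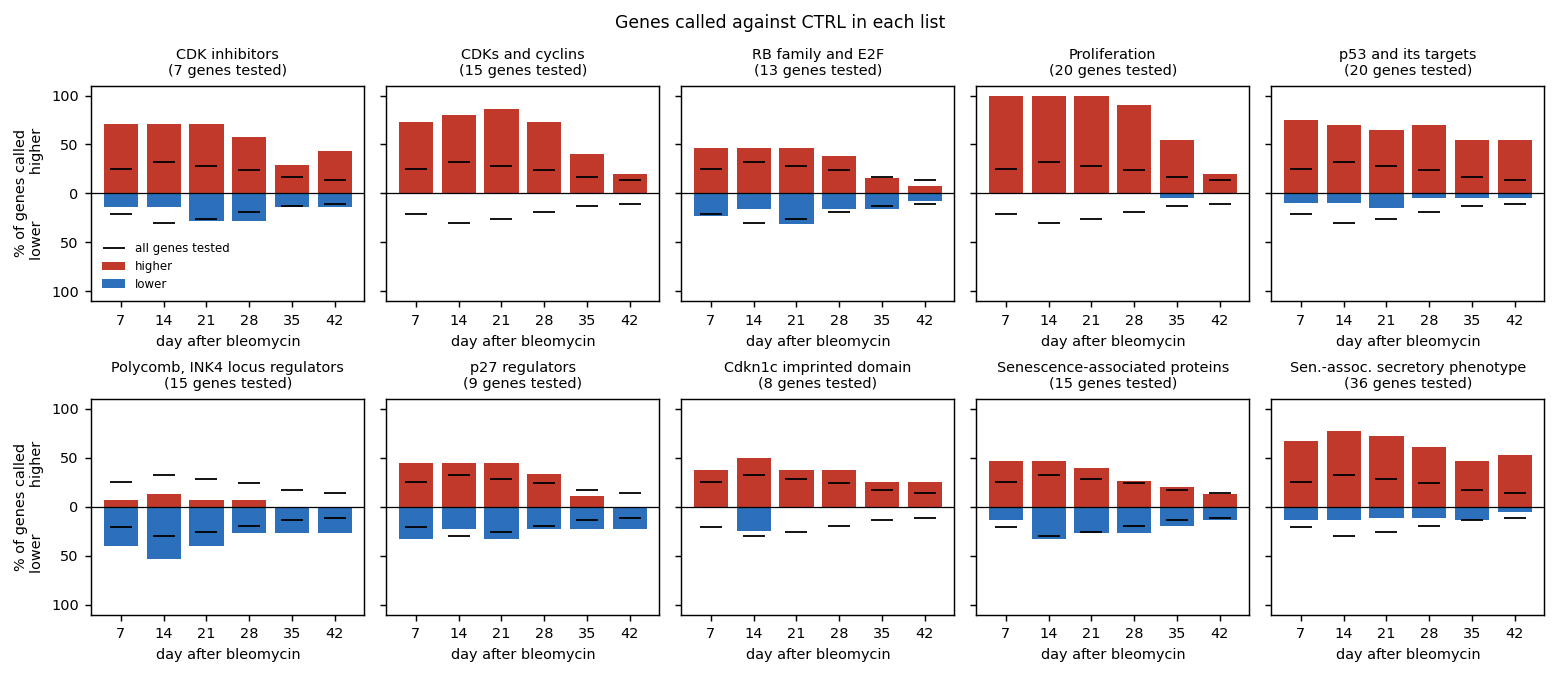
Percent of the genes tested in each list that were called higher (red, upward) or lower (blue, downward) than CTRL by day after bleomycin, with the percent over all genes tested as black marks. All 20 proliferation genes were higher up to day 21 and 4 on day 42, whereas 11 of 20 genes of p53 and its targets were still higher on day 42.

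Markers of several cell types moved with these results, and their part in them was not tested. Of all genes tested, 24.8%, 32.4% and 13.7% were higher on days 7, 14 and 42. For transitional alveolar epithelial cells, which are marked by *Krt8*, 8 of 8 genes were higher on day 7, and 7 and 6 were on days 14 and 42, among them *Cldn4* (3.21 on day 14), *Sfn* (2.12) and *Lgals3* (282 CPM on day 14 and 99.7 in CTRL). Their summed level was 1022 to 1316 CPM in CTRL, 1795 to 2889 on day 7, 1715 to 2674 on day 14 and 1287 to 1824 on day 42. Of 8 genes of monocyte-derived macrophages, 7 were higher on days 7, 14 and 42, with *Spp1* (5.62 on day 14), *Trem2* (4.28) and *Gpnmb* (3.87) leading, and the sum went from 188 to 284 CPM in CTRL to 1296 to 8660 on day 14 and 410 to 3336 on day 42. Within groups, *Cdkn1a* correlated with both sums (r = 0.68 and 0.69 over 75 mice, rho = 0.67 and 0.70), and *Cdkn2a* more weakly (r = 0.46 and 0.54). Some lists of no single cell type gave similar values, and others gave lower ones. For *Cdkn1a*, r was 0.71 with the summed senescence-associated proteins, 0.62 with the SASP sum and 0.27 with the proliferation sum. For *Cdkn2a* it was 0.23, 0.48 and 0.50. The sum of senescence-associated proteins includes *Lmnb1*, a mark by its loss, and cannot be read as a level of senescence. For fibroblasts and myofibroblasts, 7 of 8 genes were higher and 1 lower on day 14. The higher genes were led by *Col1a1* (2.90), *Cthrc1* (2.50) and *Col3a1* (2.49). The sum rose from 2137 to 2736 CPM in CTRL to 4718 to 11903 on day 14, and r within groups was 0.58 for *Cdkn1a*, 0.49 for *Cdkn2a* and -0.55 for *Cdkn1b*.

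Genes of endothelial, airway and alveolar epithelial cells were mostly lower on day 14. The shares of all genes tested were 32.4% higher and 29.9% lower on day 14, and 13.7% and 11% on day 42. Of 8 endothelial genes 7 were lower and 1 higher on day 14, and 4 were lower on day 42. *Ednrb* (-1.30), *Kdr* (-0.97) and *Tek* (-0.87) led on day 14, and the sums were 4091 to 5552 CPM in CTRL and 3245 to 4612 on day 42. On day 7, 5 of the 8 were lower, beside 21% of all genes. Within groups *Cdkn1c* had r = -0.13 and rho = 0.04 with the endothelial sum over 75 mice, and a link between the 2 was not tested. All 8 genes of ciliated and club cells were lower on day 14, led by *Cyp2f2* (-1.91), *Tppp3* (-1.74) and *Scgb1a1* (-1.61), and 6 of 8 genes of alveolar type 2 cells were, led by *Sftpa1* (-1.19), *Slc34a2* (-0.91) and *Sftpc* (-0.88), as *Cdkn1b* was. Of 8 alveolar type 1 genes 5 were lower and 1 higher, with *Rtkn2* (-0.96), *Cav1* (-0.87) and *Pdpn* (0.62) the largest. Alveolar macrophages gave 4 of 7 genes higher (*Mrc1* 1.83, *Marco* 1.63, *Chil3* 1.00), neutrophils 4 of 7 (*Mmp8* 2.88, *Ngp* 2.25, *Retnlg* 1.87), T and NK cells 3 of 8 lower (*Gzma* -1.54, *Nkg7* -0.98, *Cd8a* -0.69), and B and plasma cells 3 higher and 4 lower of 7 (*Jchain* 2.17, *Pax5* -1.44, *Ms4a1* -1.40). Thymus markers gave 3 of 4 lower (*Rag1* -5.01, *Dntt* -1.98, *Themis* -0.73) and muscle markers 1 of 6 higher (*Tnnt2* 1.21). The summed thymus level was low, at 13.2 to 45.7 CPM (median 15.6) in CTRL and 7.47 to 18.6 (median 12.9) on day 14. The highest CTRL mouse thus lay far above the CTRL median. The counts of T and NK cells and of muscle stood near or below the shares of all genes. Day 14 replicate 8, with the highest *Cdkn1a*, *Cdkn1c*, *Cdkn2b* and *Cdkn2d*, also had the highest neutrophil sum of its group (597 CPM against a median of 85.9) and the highest sums of both macrophage lists, but the lowest sum of proliferation genes (446 CPM against a median of 703). Without this mouse 2 of 7 neutrophil genes were higher on day 14, beside 31.8% of all genes, and the counts of the other cell type lists were the same.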

How the data were processed

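RNA of the inferior lung lobe was measured in 75 mice. The authors prepared directional poly A libraries, aligned the reads with STAR 2.7.0f to GRCm38 with Ensembl release 96, and deposited raw read counts per gene, 1 column per mouse. The counting program and its handling of strand and of multiply mapped reads were not given in the sources used here. All 55536 gene identifiers matched GENCODE M21, which holds the same annotation. Groups were taken from the sample titles, and the columns from the library names in the labels. Libraries of a group were compared by a chi-square test, and none of the 375 pairs within groups agreed within sampling noise (lowest chi-square per degree of freedom 4.11). Nothing in the labels states more than 1 library per mouse.

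Counts were tested with edgeR 4.0.16 in R 4.3.3 by glmQLFit and glmQLFTest, with TMM factors, filterByExpr (minimum count 10) and 1 mean per group, and p-values were adjusted by Benjamini-Hochberg over 16221 genes at 0.05. CPM were scaled by the TMM factors, log2 CPM used a prior count of 2, SDs are between mice, and CPM per kilobase used the union of a gene's exons. The depth of 9240291 to 14665247 counts per mouse limits precision for *Cdkn2a*. The alternatives were DESeq2 1.42.0, library size only, upper quartile factors, no filter, at least 10 counts in every mouse, only the 2 groups compared, and the replicate number as a block. Refits that left out each mouse in turn were added after the values were seen, as were the values without day 14 replicate 8, the comparison of members with summed list levels and the promoter motifs. The members and the gene lists were chosen with earlier results of these data known, so that no list is independent evidence of its direction. Named genes were the members, a fixed set of genes of these pathways, in each list up to 3 genes with the largest log2FC among those called on day 14, and the 3 genes most like each member, some of which are not reported here. *Rbl2*, *E2f2* and the genes named for tissue checks were chosen after their values were seen. The fit was tested on simulated data. Motifs were read from the RefSeq promoter table, and Python 3.11.15, pandas 2.3.3 and matplotlib 3.10.9 served for tables and plots.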

Additional observations from a re-analysis of the deposited data

Results flagged for a closer look

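In 2 of 21 groups of 7 or 10 mice tested for 1 mouse far from the others, the highest mouse stood apart by its gap to the next mouse over the range of the group, which chance gives in about 1 of 20 groups. *Cdkn1a* on day 7 was 425 CPM in replicate 5, and *Cdkn2a* on day 42 was 4.92 CPM in replicate 7. Groups of 12 mice, among them day 14 with its replicate 8, were not tested in this way.

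Levels after bleomycin differed between days for 6 of 7 members by the fit that compared the days themselves, although *Cdkn2b* did not hold its call throughout. Of all genes tested, 9.48% were higher and 7.55% lower on day 14 than on day 7. From day 14 to day 21, 1.03% were called (1 gene higher and 4 lower without day 14 replicate 8). From day 14 to day 42, 15.2% were higher and 18.8% lower. No day had a CTRL group of its own, so that a changing effect of bleomycin and other changes with time cannot be told apart. From day 7 to day 14 the log2FC was 1.24 for *Cdkn2a* (adjusted p = 0.00685) and 0.32 for *Cdkn2c* (adjusted p = 0.0108). From day 14 to day 21 it was -0.58 for *Cdkn1a* (adjusted p = 0.0149, and 0.105 without day 14 replicate 8). From day 14 to day 42 it was -1.13 for *Cdkn1a* (adjusted p = 1.54e-07), 0.55 for *Cdkn1b* (adjusted p = 6.69e-07), -0.37 for *Cdkn2b* (adjusted p = 0.0349, lost in 8 of 19 fits without 1 mouse, and -0.20 with adjusted p = 0.188 without day 14 replicate 8), -0.36 for *Cdkn2c* (adjusted p = 0.00517) and -0.58 for *Cdkn2d* (adjusted p = 1.61e-05). *Cdkn1c* passed in no comparison between days.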

How the results depend on the processing

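Of 575 member results under the 7 alternatives, 566 had the same call and 9 changed, and no called difference reversed its direction. *Cdkn2a* on day 7 lost its call with no filter on low counts (adjusted p = 0.0902), *Cdkn2b* on day 42 lost it with no filter (0.0795) and *Cdkn2b* from day 14 to day 42 lost it with no filter (0.0790) or only the 2 groups compared (0.137). In a fit of only the 2 groups compared, *Cdkn2b* on day 35 gained a call (0.00325) and *Cdkn1a* from day 14 to day 21 lost it (0.177), so that 0 members in place of 1 were called there. With at least 10 counts in every mouse, *Cdkn2a* could not be tested in any comparison, and 1 member in place of 2 was called from day 7 to day 14. It also did not pass the filter in the fit of day 7 and CTRL only, and both settings left 5 members in place of 6 called on day 7. Leaving out each mouse in turn changed 40 of 1799 member results, and the number of members called ranged from 0 to 2 from day 14 to day 21, from 0 to 1 from day 21 to day 28 and from 0 to 1 from day 28 to day 35. Beside the lost calls of the report, calls were gained for *Cdkn2d* from day 14 to day 21 without day 14 replicate 5 or 6 or day 21 replicate 5, *Cdkn1b* from day 21 to day 28 without day 21 replicate 8 or day 28 replicate 1, *Cdkn2c* from day 28 to day 35 without day 28 replicate 8 and on day 42 without day 42 replicate 6, and *Cdkn2b* from day 7 to day 14 without day 7 replicate 5 (adjusted p from 0.0269 to 0.0488).

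With the replicate number as a block, calls were lost for *Cdkn2a* on day 7 (adjusted p = 0.0573), *Cdkn2b* on day 42 (0.0522) and *Cdkn2b* from day 14 to day 42 (0.0655), and the block changed no other call. In day order it left 5, 6, 7, 6, 3 and 3 members called against CTRL, and 4 members from day 14 to day 42. The labels state no link between mice with the same number, which correlated no better across groups (median r = 0.0057) than mice with different numbers (0.0018), and 8 of 75 mice correlated best with their own number.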
